A study of Mus musculus with 32 samples.

Results

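The genes described here are 9 markers of the neuronal lineage: the transcription factors Insm1, Dlx1, Dlx2, Pax6 and Neurod1, and the neuroblast markers Dcx, Tubb3, Cd24a and Stmn2. They were chosen by name, with earlier results of these data known. Each symbol was matched to its Ensembl row among the 23035 genes of the ribosome footprint tables, and all 9 were found at both times. They were then followed in the 16 footprint libraries and in the 16 libraries of total RNA.

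The cells were neural stem cells (NSCs) grown from the ventricular-subventricular zone of C57BL/6 mice aged 8 to 12 weeks, kept in culture with EGF and basic FGF. Cultures were given interferon-β (IFN-β) or its carrier, bovine serum albumin in PBS (vehicle), for 2 or 14 h. There were 4 cultures in every one of the 4 groups, and each lysate gave a ribosome footprint library and a total RNA library. All cultures, vehicle included, received cycloheximide just before lysis, which halts ribosomes where they stand. All cells were wild type, and the study's methods name male mice. The deposited labels number the cultures 2, 3, 5 and 6 at 2 h and 1 to 4 at 14 h, and do not say whether the numbers stand for separate animals, so p-values measure the spread between these cultures.

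In the adult ventricular-subventricular zone, NSCs give rise to transit-amplifying progenitors and these to neuroblasts, which migrate to the olfactory bulb and become interneurons. Transcription factors of the Dlx family and Pax6 take part in setting the fate of these cells, while Insm1 and Neurod1 act as progenitors leave the cycle and differentiate. Doublecortin, βIII-tubulin, CD24 and stathmin-2 are used to recognise neuroblasts and young neurons. Ribosome footprints are the short stretches of mRNA that a ribosome shields from RNase, so their count over a coding sequence depends on both the amount of mRNA and the number of ribosomes on it. The cultures were mixed populations measured in bulk, in which fewer cells of a type and less RNA per cell cannot be told apart.

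The libraries held between 2956297 and 10505108 footprint counts and between 1370008 and 7877753 total RNA counts. Stem cell and astroglial markers were abundant in footprints, with a summed level of 10191 to 17351 counts per 1000000 counts of the library (CPM) over 12 genes that include Nes, Sox2, Vim and Fabp7. The microglial markers Cx3cr1, Aif1 and C1qa were at 0 in every footprint library, while the 8 microglial markers summed to 393 to 835 CPM in total RNA. The footprint libraries numbered 3 at 2 h stood apart from the other 3 of their group: their correlations with them were 0.945 to 0.963 with IFN-β and 0.941 to 0.957 with vehicle, over the 10232 genes that averaged 50 counts or more. Results at 2 h are therefore also given without both.

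The members lie on 5 chromosomes of the mouse genome GRCm38, with 5 of the 9 on chromosome 2. Insm1 (ENSMUSG00000068154, chr2:146221921-146225020, plus strand) has a single exon and overlaps no other gene. Pax6 (ENSMUSG00000027168, chr2:105668900-105697364, plus strand) shares no exonic base with its antisense neighbour Pax6os1. Stmn2 (ENSMUSG00000027500, chr3:8509360-8561606, plus strand) and Cd24a (ENSMUSG00000047139, chr10:43578284-43584265, plus strand) also overlap no other gene. Tubb3 (ENSMUSG00000062380, chr8:123411424-123422015, plus strand) lies inside an intron of the longer same-strand model Gm20388. Dlx1 shares 335 exonic bases with the antisense Dlx1as and Neurod1 shares 154 with Gm26755. The strand setting of the counting was not given in the sources used here, so reads of such partners could not be told apart.

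A footprint is assigned to a gene only as well as its sequence allows, so the coding sequences were cut into overlapping 30-base windows and each was looked for in all transcripts of GENCODE M21. None of the windows of Insm1, Dlx1, Pax6 or Dcx occurred unchanged in another gene. Matches with mismatches or of shorter stretches were not searched. Of the 1321 windows of Tubb3, 68 (5.15%) were found elsewhere, 48 of them in Tubb6. For Tubb3 the window found in the largest number of other genes (5, starting at coding base 1249) is shown beside its last 30 coding bases (from base 1321), which occurred in no other gene. For Cd24a the share was 17.0% (45 of 265 windows), all 45 of them in Gm6212, and for Stmn2 it was 2.76% (14 windows), all 14 of them in Stmn1.
Tubb3, shared window: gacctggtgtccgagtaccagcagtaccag
Tubb3, last coding bases: gacgaggaatcggaagcccaggggcccaag

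Per kilobase of coding sequence, the footprint levels of the members spanned a wide range and kept much the same order in vehicle cultures at both times. Cd24a, which encodes a small glycosylated surface protein, was the highest, with 302.9 ± 39.1 CPM per kb in vehicle at 2 h and 263 ± 30.8 at 14 h (SD, n = 4 in each group here and below). Tubb3, the neuronal β-tubulin, followed with 39.8 ± 8.88 and 35.3 ± 2.39. Levels at the 2 times come from tables that were scaled separately and are set side by side only. Insm1, Pax6 and Stmn2 formed a middle group at 14.8 ± 4.55, 14.4 ± 4.72 and 11.3 ± 0.590 CPM per kb at 2 h, and the libraries of neighbours in this order overlapped. At 14 h the Insm1 libraries (23.2 ± 4.00) stood clear of those of Pax6 (11.2 ± 1.43), which overlapped those of Stmn2 (9.61 ± 2.88). Dcx, Neurod1, Dlx2 and Dlx1 were at 2.24 ± 0.455, 1.93 ± 0.261, 1.54 ± 0.430 and 0.617 ± 0.239 CPM per kb at 2 h. Among these 4, neighbours in the order overlapped except Dlx2 and Dlx1. With IFN-β at 2 h the middle of the order changed to Stmn2 (13.0 ± 3.71), Pax6 (10.2 ± 3.04) and Insm1 (5.00 ± 0.752), and the libraries of Pax6 and Insm1 no longer overlapped.

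Seen against the other genes with footprints in vehicle cultures at 2 h (15150 genes), Cd24a lay above 96.5% of them and Tubb3 above 73.8%. Insm1, Pax6 and Stmn2 lay near the middle, above 53.2%, 52.6% and 47.8%. Dcx, Neurod1, Dlx2 and Dlx1 lay above 27.9%, 26.9%, 25.5% and 20.3%. The defining neuroblast marker Dcx thus had between 14 and 24 footprint counts in each vehicle library at 2 h and between 2 and 7 at 14 h.

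**Figure D1:**
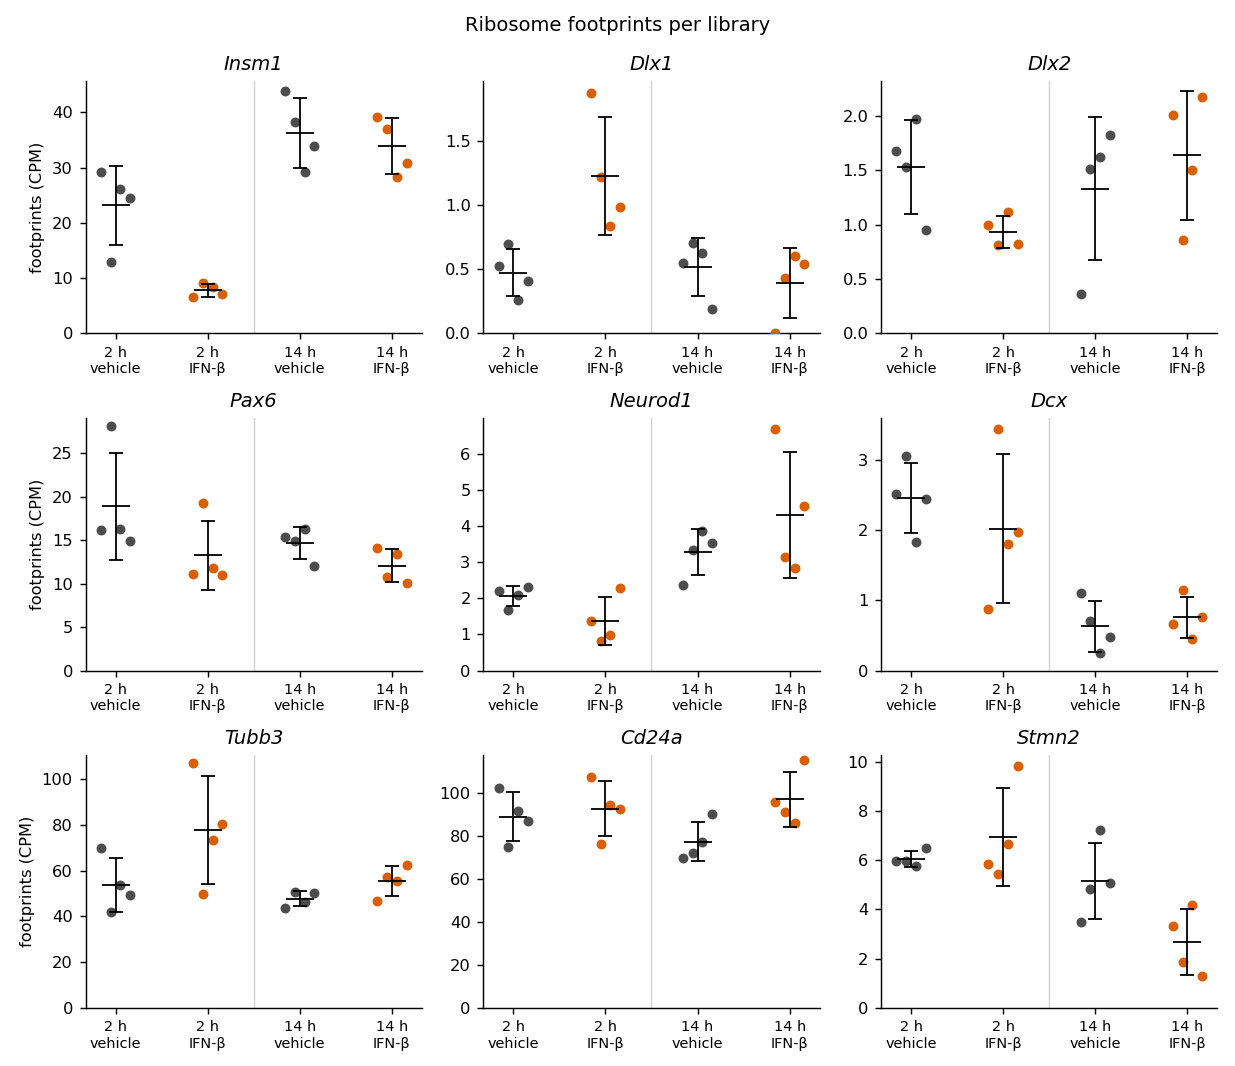
Footprint levels of the 9 genes in CPM (vertical axes, each from 0) for vehicle (grey) and IFN-β (orange) cultures at 2 h and 14 h. Each point is a library, and the bar and whiskers give the mean ± SD of 4. Insm1 and Dlx1 at 2 h are the only panels and times in which the vehicle and IFN-β points do not overlap.

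After 2 h of IFN-β the clearest change among the members was in Insm1, a zinc finger factor that promotes the exit of progenitors from the cycle, whose footprints fell about 3-fold. The vehicle libraries 2, 3, 5 and 6 had 29.2, 12.9, 26.1 and 24.6 CPM of Insm1, from 93 to 279 counts. The IFN-β libraries of the same numbers had 6.61, 9.10, 8.49 and 7.06 CPM, from 43 to 61 counts. Every IFN-β library was below every vehicle library, and the vehicle library numbered 3 was the lowest of its group. The mean fell from 23.2 ± 7.12 to 7.81 ± 1.18 CPM. The log2 fold change was -1.58 (SE 0.249, adjusted p = 0.00387, quasi-likelihood F test of edgeR, p-values adjusted by Benjamini-Hochberg over 12104 genes), a 2.99-fold drop. Without both libraries numbered 3 it was -1.86 (SE 0.137, adjusted p = 2.13e-06).

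Insm1 was the only one of the 7 members tested at 2 h that passed an adjusted p of 0.05, here termed called. Over all genes tested, 7.25% were called at 2 h, 2.01% lower and 5.25% higher, and every IFN-β library was below every vehicle library in 5.14%. The median log2 fold change of the 7 members was -0.34, against -0.02 over all genes. Dlx1 and Dlx2 had too few counts to be tested, the minimum being 10 counts in at least 4 libraries.

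Pax6, a paired-box factor of neural progenitors, was lower with IFN-β in each pair of cultures of the same number, and its call depended on whether the pairs were used. The vehicle libraries 2, 3, 5 and 6 had 16.2, 28.1, 16.3 and 14.9 CPM, and the IFN-β libraries 11.1, 19.2, 11.8 and 11.0. Library 3 was the highest of each group and lay well above the other 3, so that the groups overlapped. Its log2 fold change without regard to number was -0.52 (SE 0.256, adjusted p = 0.362, edgeR). With the number as a block, as the correlations between same-numbered footprint libraries allow, it was -0.50 (SE 0.105, adjusted p = 0.000478), a setting under which 29.2% of all genes were called. Without both libraries numbered 3 and with no block it was -0.49 (SE 0.122, adjusted p = 0.0198).

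Tubb3 moved in the opposite direction. Its vehicle libraries had 70.1, 41.7, 53.7 and 49.4 CPM and the IFN-β libraries 107, 49.8, 73.3 and 80.4, in the order 2, 3, 5 and 6. Each IFN-β library was above the vehicle library of its number, while the groups overlapped because number 3 was the lowest and number 2 the highest of each. Without a block, it gave 0.53 on the log2 scale (SE 0.230, adjusted p = 0.271), with the block 0.53 (SE 0.0677, adjusted p = 5.72e-07), and without both libraries numbered 3 and with no block 0.59 (SE 0.150, adjusted p = 0.0214, edgeR). Among the members, the block added Pax6 and Tubb3 to the calls at 2 h.

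The other members gave no call at 2 h with or without the block. Cd24a had 103, 74.8, 91.7 and 87.1 CPM with vehicle and 107, 76.3, 94.8 and 92.6 in the treated cultures. Its log2 fold change was 0.06 with a 95% interval from -0.19 to 0.31. Stmn2, a microtubule-destabilising protein of growing neurites, gave 0.20 (-0.20 to 0.60). Neurod1, a basic helix-loop-helix factor, gave -0.59 (-1.23 to 0.04), from 12 to 21 counts per vehicle library and 4 to 14 per IFN-β library. Dcx, a microtubule-binding protein of migrating neuroblasts, gave -0.34 (-1.07 to 0.38), from 7 to 24 counts per library.

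The paired homeobox genes Dlx1 and Dlx2 are neighbours on chromosome 2 and were near the limit of detection. Dlx1 had 0.523, 0.695, 0.263 and 0.407 CPM in the vehicle libraries and 1.87, 1.21, 0.835 and 0.985 in the IFN-β libraries at 2 h. Every IFN-β library was above every vehicle library (p = 0.0286, two-sided exact permutation test, the smallest that 4 against 4 can give). Over the genes tested at 2 h, the groups did not overlap in 12.9%, and the IFN-β libraries were above in 7.77%. The Dlx1 groups held 15 counts in all with vehicle (95% Poisson interval 8.40 to 24.7) and 33 with IFN-β (22.7 to 46.3). These intervals cover counting error only and are not scaled to depth. The vehicle libraries held 7110178 to 9361609 counts and the IFN-β libraries 4956144 to 8170824, so the overlap of the raw intervals does not compare levels. Dlx2 had 7 to 16 counts in a vehicle library and 4 to 8 in an IFN-β library, or 1.53 ± 0.429 and 0.935 ± 0.147 CPM, and its groups overlapped.

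Markers of the oligodendrocyte lineage moved with Insm1 at 2 h. Of 10 such markers, 6 were tested and 2 were called, both lower: Olig2, with a log2 fold change of -0.98 (adjusted p = 0.000387), and Olig1, with -0.55 (adjusted p = 0.0115, edgeR). With the replicate block 5 of the 6 were called, all lower. Over all genes 7.25% were called at 2 h, and 29.2% with the block. The summed level of the 10 ranged from 2527 to 3053 CPM in the vehicle libraries and from 1742 to 2121 in the IFN-β libraries, and Mog was at 0. None of the 12 astroglial and stem cell markers was called at 2 h (edgeR), and 1 had an unadjusted p under 0.05, while the block gave 1 lower and 4 higher. The single endothelial marker and the 3 ependymal markers tested gave no call at 2 h (1 and 0 with an unadjusted p under 0.05), and the block gave 1 endothelial marker higher and 1 ependymal marker lower. The part of these markers in the Insm1 result was not tested.

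After 14 h of IFN-β Stmn2 fell, Cd24a and, as in each pair at 2 h, Tubb3 rose, and Insm1 was close to its vehicle level. Stmn2 had 3.48, 4.85, 7.22 and 5.08 CPM in vehicle libraries 1 to 4 and 3.35, 1.87, 4.20 and 1.31 in the IFN-β libraries. The IFN-β library was the lower of each pair, by little in number 1, and the groups overlapped. The mean fell from 5.16 ± 1.55 to 2.68 ± 1.33 CPM, on 178 and 63 counts in all. On the log2 scale the change was -1.07 (SE 0.324, adjusted p = 0.0141, edgeR), a 2.10-fold drop. This call was lost without vehicle library 3 (-0.87, adjusted p = 0.0501) and without IFN-β library 4 (-0.76, adjusted p = 0.0569).

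Cd24a rose from 69.9, 72.4, 77.1 and 90.2 CPM in the vehicle libraries to 96.0, 91.2, 86.0 and 115 in the IFN-β libraries. The highest vehicle library lay within the range of the IFN-β libraries. This was a log2 fold change of 0.33 (SE 0.0996, adjusted p = 0.0144, edgeR), or 1.26-fold, and the call held without any 1 library. Tubb3 rose by less, from 43.8, 50.5, 46.2 and 50.2 CPM to 46.8, 57.4, 55.4 and 62.3, again with overlap. Its log2 fold change was 0.23 (SE 0.0821, adjusted p = 0.0295, edgeR). The Tubb3 call was lost without vehicle library 1 or 3 or IFN-β library 2, 3 or 4 (adjusted p from 0.0541 to 0.104).

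In all, 3 of the 7 members tested at 14 h were called, 1 lower and 2 higher. At this time 52.5% of all genes tested were called, 26.3% lower and 26.2% higher, so the members' share was no higher than that of genes at large. The groups did not overlap in 46.2% of all genes tested and in none of the 9 members. The median log2 fold change was 0.18 over the 7 members and 0.00 over all genes.

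Insm1 had 43.8, 38.3, 29.1 and 33.9 CPM in the vehicle libraries at 14 h and 39.2, 37.0, 28.4 and 30.9 in the IFN-β libraries. Each IFN-β library was slightly below the vehicle library of its number. The log2 fold change was -0.11 (SE 0.127, adjusted p = 0.483), with a 95% interval from -0.36 to 0.14. Pax6 had 15.4, 14.9, 16.3 and 12.0 CPM with vehicle and 14.1, 10.8, 13.4 and 10.1 with IFN-β, lower in each pair. Its log2 fold change was -0.31 (SE 0.139, adjusted p = 0.0800, edgeR), and with the replicate number as a block -0.30 (SE 0.108, adjusted p = 0.0188), where 62.8% of all genes were called. It was also called without vehicle library 4 (-0.40, adjusted p = 0.0279).

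Neurod1 at 14 h gave a log2 fold change of 0.27 (95% interval -0.22 to 0.76) and Dlx2 one of 0.18 (-0.57 to 0.92), on at most 42 and 20 counts per library. Dlx1 and Dcx were under the count minimum. Dlx1 had 0 to 7 counts per library, and Dcx had 2 to 7 in the vehicle libraries and 2 to 8 in the IFN-β libraries, or 0.634 ± 0.363 and 0.757 ± 0.291 CPM. Dcx held 20 counts in all in each group, and a difference was not tested.

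Other markers moved at 14 h as well. The summed level of 6 ependymal markers was 20.0 to 27.8 CPM in the vehicle libraries and 47.6 to 59.9 in the IFN-β libraries. Foxj1 and Cfap126 were called higher, and the other marker tested, Rsph1, was not called (-0.02). Foxj1 alone had means of 19.9 and 47.9 CPM and made up most of both sums. The summed level of 8 microglial markers was 5.98 to 8.80 and 21.3 to 26.7 CPM. P2ry12 was the only one of them tested, and Cx3cr1, Aif1 and C1qa were at 0. The 7 mature neuron markers summed to 23.3 to 32.3 and 26.3 to 31.2 CPM, and none of the 3 tested was called (edgeR, 1 with an unadjusted p under 0.05), while the block called 1 higher. Of 10 astroglial and stem cell markers tested, Slc1a3 (-0.36) and Fabp7 (-0.40) fell and Slc1a2 (0.63) and Hopx (1.68) rose. Of 6 oligodendrocyte markers tested, Cnp rose (1.2), and the block called 1 lower and 3 higher. Beside these marker calls, 52.5% of all genes were called at 14 h, and 62.8% with the block. The part of these markers in the results on Stmn2, Cd24a and Tubb3 was not tested.

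**Figure D2:**
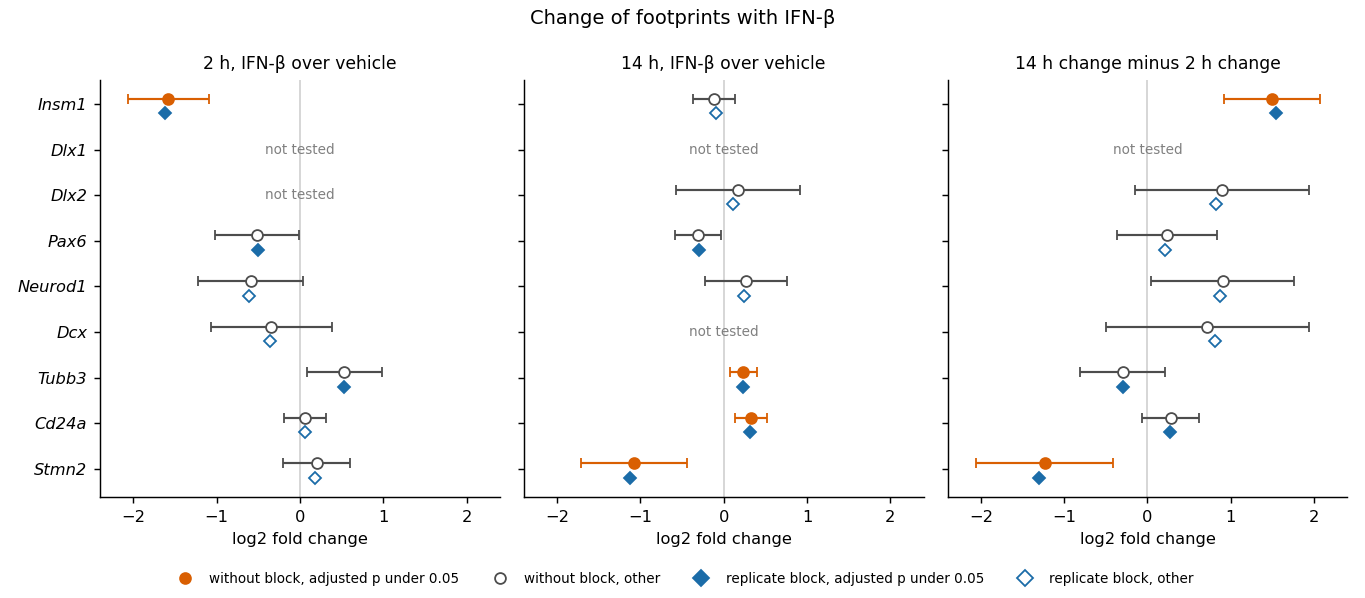
Log2 fold changes of footprints with IFN-β at 2 h (left), at 14 h (middle) and the difference between them (right) for each member tested. Circles show the fit without a block with its 95% interval, diamonds the fit with the replicate number as a block, and filled symbols an adjusted p under 0.05. Insm1 lies at -1.58 at 2 h and -0.11 at 14 h, and Stmn2 at 0.20 and -1.07.

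Whether the response differed between the exposures was tested in 1 fit over the 16 footprint libraries, as the log2 fold change at 14 h minus that at 2 h. For Insm1 the difference was 1.49 (SE 0.296, adjusted p = 0.00129, edgeR), and it was called without any 1 library and without both libraries numbered 3 at 2 h (1.76, adjusted p = 3.38e-06). For Stmn2 it was -1.23 (SE 0.420, adjusted p = 0.0355). These were the calls among 8 members tested, beside 30.9% of all genes (15.5% lower, 15.4% higher). The Stmn2 call was lost without any 1 of 7 libraries: vehicle 3 or 4 or IFN-β 2 or 4 at 14 h, and vehicle 5 or IFN-β 5 or 6 at 2 h (log2 differences from -1.25 to -0.93, adjusted p from 0.0524 to 0.0880).

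The replicate block added Tubb3, with a difference of -0.29 (SE 0.0872, adjusted p = 0.00628), and Cd24a, with 0.27 (SE 0.0753, adjusted p = 0.00364), where 55.5% of all genes were called. Neurod1 had a difference of 0.90 (95% interval 0.05 to 1.76, adjusted p = 0.127) and was called without IFN-β library 6 at 2 h (1.24, adjusted p = 0.0450, edgeR). Pax6 (0.23, -0.37 to 0.83), Dlx2 (0.89, -0.15 to 1.94) and Dcx (0.72, -0.50 to 1.93) were not called. For Pax6 the values at both times were thus negative and their difference was within its error.

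The total RNA libraries show how much of these patterns could be seen at the level of transcript. At 2 h, Insm1 had 11.7, 10.4, 9.20 and 15.7 CPM in vehicle libraries 2, 3, 5 and 6 and 5.36, 3.75, 7.09 and 4.67 with IFN-β. Every IFN-β library was below every vehicle library, as in the footprints. The log2 fold change was -1.17 (SE 0.282, unadjusted p = 0.0013, adjusted p = 0.113, edgeR), and with DESeq2 -1.21 (adjusted p = 0.0229). The groups did not overlap in 4.88% of the genes tested, and the IFN-β libraries were below in 2.06%. At 14 h Insm1 gave -0.29 (95% interval -0.82 to 0.25).

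In total RNA at 2 h, Pax6 had 20.0 to 56.1 CPM in the vehicle libraries and 19.6 to 29.7 in the IFN-β libraries. It gave a log2 fold change of -0.35 (-0.99 to 0.28), and one of -0.32 (-0.73 to 0.10) at 14 h. Stmn2 (-0.21, -1.03 to 0.61) and Cd24a (0.75, -0.24 to 1.74) were tested at 2 h only, on at most 18 and 23 counts per library. None of the 4 members tested at 2 h and of the 2 tested at 14 h was called, beside 0.799% and 6.3% of all genes. Insm1 at 2 h was the only one with an unadjusted p under 0.05, and DESeq2 called it alone.

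**Figure D3:**
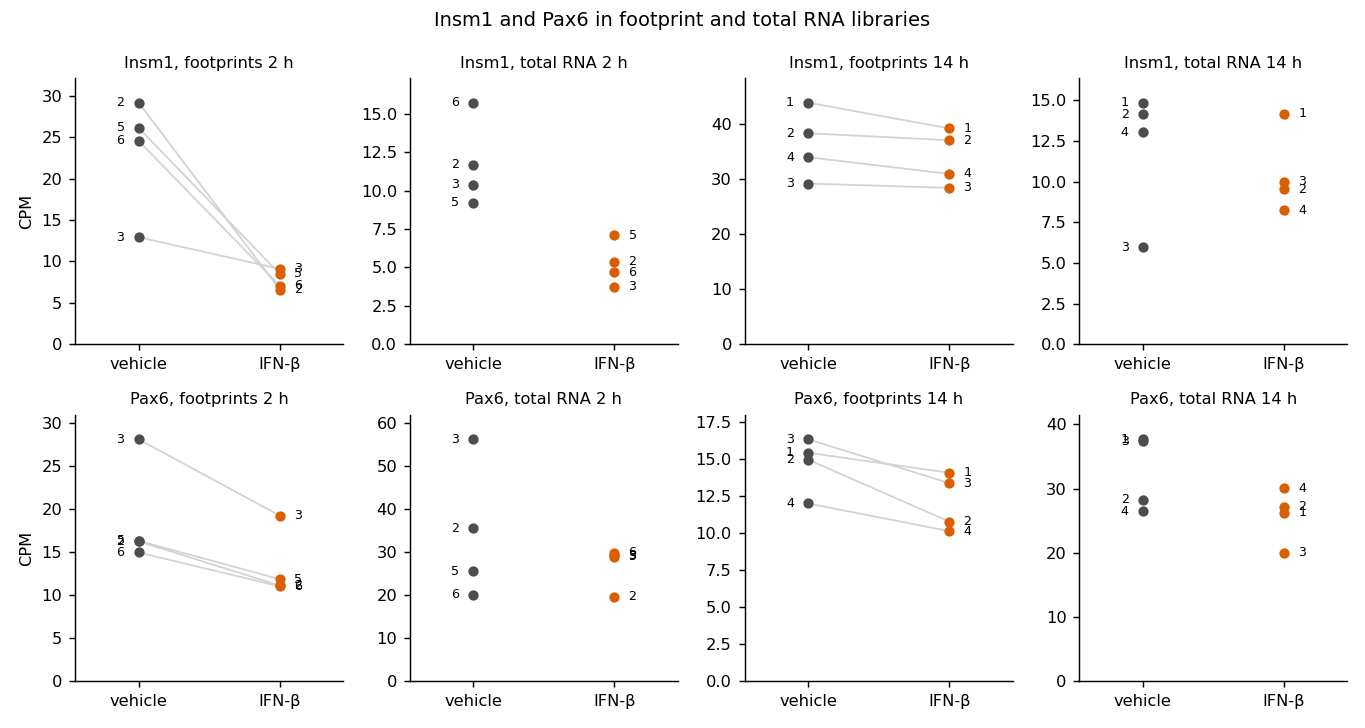
Insm1 (top) and Pax6 (bottom) in CPM (vertical axes from 0) in footprint and total RNA libraries at 2 h and 14 h, with each library marked by its culture number. Grey lines join footprint libraries of the same number. Insm1 shows no overlap between groups at 2 h in either kind of library, and the Pax6 lines fall in all 8 footprint pairs.

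Tubb3 and Neurod1 were listed at 0 in all 16 total RNA libraries, although Tubb3 had 140 to 860 footprint counts per library. Among the 8896 genes that averaged 100 footprints or more, 139 (1.56%) had no total RNA count, and Sox2 was another gene at 0. The authors counted total RNA over whole gene bodies in a mode that leaves out reads falling on more than 1 gene. The span of Tubb3 lies within Gm20388, that of Neurod1 overlaps Cerkl and that of Sox2 lies in Sox2ot, each on the same strand. Of the 133 genes without a total RNA count that the annotation holds, 94.0% overlapped another gene model on their strand, against 23.4% of the 8728 with a count. The part of this overlap in the missing counts was not tested. Dlx1, Dlx2 and Dcx had 42, 8 and 6 total RNA counts over the 16 libraries, with no gene model overlapping them on their strand.

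Translation efficiency (TE), the change of footprints relative to that of total RNA, could be fitted for Insm1, Pax6, Cd24a and Stmn2 as an interaction of library kind and treatment. No member passed an adjusted p of 0.1 at either time, none had an unadjusted p under 0.05, and DESeq2 called none. Over all genes, 0.815% passed at 2 h and 8.46% at 14 h. For Insm1 the TE change was -0.34 at 2 h (95% interval -1.08 to 0.39) and 0.18 at 14 h (-0.39 to 0.74), and for Pax6 it was -0.12 (-0.93 to 0.68) and -0.03 (-0.46 to 0.40). For Stmn2 it was 0.47 (-0.42 to 1.36) and -0.99 (-2.08 to 0.10). For Cd24a the values were -0.65 (-1.55 to 0.24) and 0.36 (-1.04 to 1.76). At 14 h Cd24a and Stmn2 were under the count minimum in total RNA, with 0 to 10 and 2 to 11 counts per library. They entered that fit through their footprint counts, so their TE values at 14 h rest on few total RNA counts.

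The gene lists from here on were, like the members, chosen with earlier results of these data known. A list of 60 other transcription factors of neurogenesis, such as the SoxC factor Sox11, was followed in the same fits. At 2 h, 32 were tested, of which 3 were called lower and 2 higher, beside 2.01% and 5.25% of all genes, and 15 had an unadjusted p under 0.05. Their median log2 fold change was -0.31 against -0.02 over all genes, with 25 of 32 below 0. With the replicate block, which called 29.2% of all genes, 20 were called lower and 6 higher. The calls without the block were Nkx2-2 (-1.02, adjusted p = 0.0288), Meis1 (-0.91, adjusted p = 0.00349) and Lhx2 (-0.57, adjusted p = 0.00671), and, in the higher direction, Emx2 (0.78, adjusted p = 0.00473) and Sox11 (1.00, adjusted p = 0.000415, edgeR). Sox11 rose from a mean of 174 to 348 CPM, against the direction of Insm1.

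At 14 h, 34 factors were tested, 5 were called lower and 9 higher (5 and 13 with the block), and the median was 0.09 against 0.00. Over all genes 52.5% were called at this time, and 62.8% with the block. Among the falls were those of Pbx3 (-0.99, adjusted p = 2.03e-05), which went from 21.2 to 10.6 CPM, and Sox11 (-0.45, adjusted p = 0.000108). Among factors that averaged 50 counts or more, the largest rises were those of Prox1 (0.74, adjusted p = 2.34e-06), Sp9 (0.71, adjusted p = 0.00341) and Emx2 (0.68, adjusted p = 7.13e-05, edgeR). Nkx2-2, Meis1, Lhx2, Emx2, Pbx3, Sp9 and Prox1 have gene models on the opposite strand, while Sox11 has none.

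The difference between the exposures was called in 12 of 36 of these factors, 2 lower and 10 higher (2 and 18 with the block), beside 30.9% of all genes (55.5% with the block). It was -1.43 for Sox11 (adjusted p = 1.29e-06) and -0.74 for Pbx3 (adjusted p = 0.00801). It was 1.69 for Gsx1 (adjusted p = 0.0192), 0.97 for Hes6 (adjusted p = 0.00414) and 0.94 for Meis1 (adjusted p = 0.00025, edgeR). Insm1, at 1.49, lay within this range. None of these factors was called in total RNA at either time (edgeR without a block, 4 with an unadjusted p under 0.05 at each time). In total RNA 30 were tested at 2 h and 22 at 14 h, beside 0.799% and 6.3% of all genes called. The block gave 1 lower at 14 h.

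Of 60 other neuroblast and young neuron markers, 56 were tested at 2 h, and the only call was Dpysl3, a cytoskeletal protein of growing axons, which rose (0.69, adjusted p = 0.0101, edgeR). Their median was -0.03 against -0.02, and with the block 7 were lower and 10 higher. At 14 h 53 were tested, 24 called lower and 8 higher (27 and 15 with the block), with a median of -0.18 against 0.00. Beside them, 26.3% of all genes were called lower and 26.2% higher (62.8% in all with the block). Nsg1, an endosomal protein of neurons, fell from 119 to 56.4 CPM (-1.09, adjusted p = 1.91e-08). Robo1, a receptor for Slit ligands, fell by 1.03 on the log2 scale (adjusted p = 3.44e-06). Stmn1, the closest relative of Stmn2 in the window search, fell by 0.86 (adjusted p = 5.38e-05, edgeR). Among markers that averaged 50 counts or more, the largest rises were in Dpysl4 (0.68, adjusted p = 4.72e-05), Nnat (0.58, adjusted p = 3.29e-05) and the dendritic protein Map2 (0.44, adjusted p = 1.67e-05). Nsg1, Robo1, Nnat and Map2 have gene models on the opposite strand.

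The difference between exposures was called lower in 9 and higher in 5 of 57 of these markers (27 and 13 with the block), beside 15.5% and 15.4% of all genes (55.5% in all with the block). It was -1.24 for Rnd3, -1.04 for Robo1 and -1.0 for Nsg1, and 1.14 for Epha4, 0.86 for Dpysl4 and 0.59 for Nnat. The value of Stmn2, -1.23, was thus close to that of Rnd3. In total RNA 42 of these markers were tested at 2 h and none was called, beside 0.799% of all genes. At 14 h 28 were tested and 1 was called, lower, beside 6.3% of all genes. The block gave 1 lower and 1 higher at 14 h.

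Repressors of neuronal genes numbered 14, all tested. At 2 h the only call was Rcor2, a corepressor that works with REST, which fell from 27.4 to 11.0 CPM (-1.34, adjusted p = 0.0122), and the block gave 3 lower and 2 higher. At 14 h Rcor2 had a log2 fold change of 0.08, and the difference of 1.44 (adjusted p = 0.000973) stands beside the 1.49 of Insm1. The median difference over the 14 repressors was -0.07. At 14 h 4 repressors were called lower and 2 higher (5 and 4 with the block), beside 26.3% and 26.2% of all genes. Hdac2 fell by 0.55 (adjusted p = 1.16e-06), Ptbp1, a splicing repressor of neuronal exons, by 0.29 (adjusted p = 0.0122) and Sin3a by 0.20 (adjusted p = 0.00486). Hey1 (0.43, adjusted p = 0.00396) and Hes1 (0.23, adjusted p = 0.0126, edgeR), targets of Notch signalling, rose. The difference between exposures was called in 5 of the 14 (2 lower and 3 higher, 4 and 4 with the block), beside 30.9% of all genes, among them Rcor3 (-0.59), Hdac2 (-0.54) and Hes1 (0.78). Ptbp1, Sin3a and Rcor3 have gene models on the opposite strand.

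**Figure D4:**
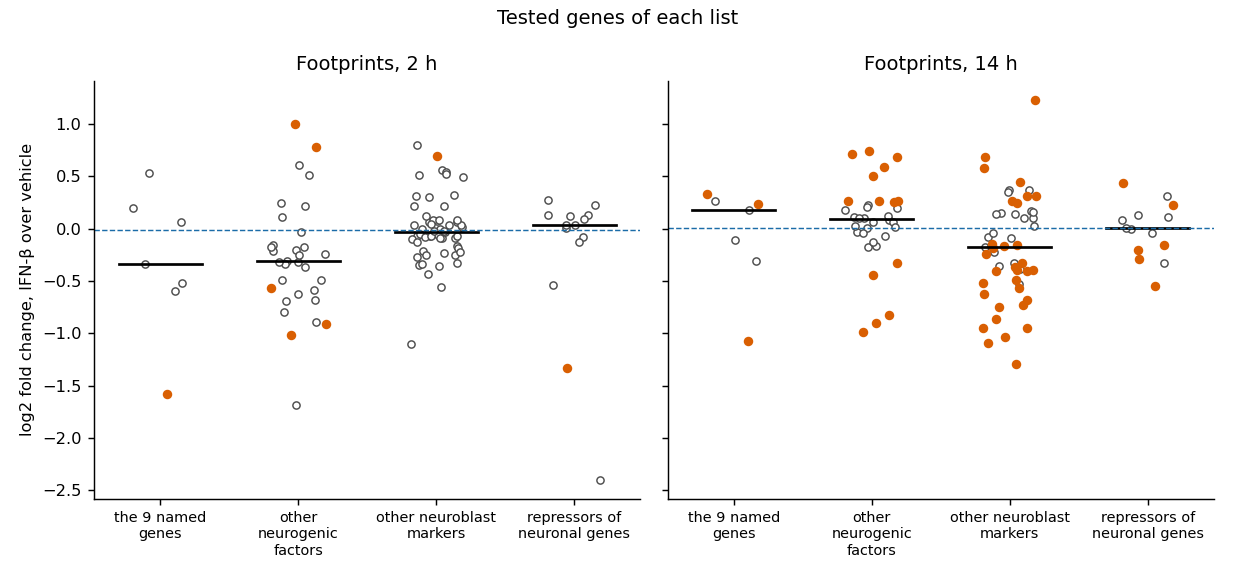
Log2 fold change of footprints with IFN-β (vertical axis) at 2 h (left) and 14 h (right) for the tested genes among the 9 members and the 3 related lists. Orange points have an adjusted p under 0.05, black bars mark medians and the dashed line the median of all genes. At 2 h the medians of the members and of the other factors are -0.34 and -0.31, and at 14 h that of the other neuroblast markers is -0.18.

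The genes whose footprints followed each member most closely were found by the Pearson correlation of log2 CPM, centred within each time, over the 16 footprint libraries and 9944 genes. These values describe libraries that share treatment and culture. For Insm1 they were Fbxw7 (0.92), Prag1 (0.92) and Fzd10 (0.91), whose log2 fold changes at 2 h were -0.66, -1.14 and -1.36. Centring within time keeps the difference between treatments, so the choice itself favours genes that fell as Insm1 did. For Pax6 they were Ccdc88a (0.94), Lrrn1 (0.92) and Timp4 (0.91), and for Tubb3 Fgf1 (0.92), Zbtb7c (0.92) and Bcl2l1 (0.90). For Cd24a they were G3bp2 (0.92), Tnfrsf10b (0.91) and Dpp3 (0.87), and for Stmn2 Fbxo30 (0.89), Kit (0.89) and Rtel1 (0.84). The rare members gave lower values: Neurod1 with Tom1l1 (0.85), Map3k4 (0.81) and Ppp1r13b (0.80), Dcx with Ptdss1 (0.84), Lsm10 (0.82) and Akna (0.80), Dlx1 with Taf7 (0.81), Ikzf5 (0.81) and Fem1c (0.80), and Dlx2 with Stx6 (0.80), Pdp2 (0.78) and Tm9sf4 (0.77). Among the members themselves, Pax6 and Tubb3 went in opposite directions across libraries (-0.84), as did Pax6 and Cd24a (-0.73), while Tubb3 and Cd24a went together (0.70). In both groups at 2 h, library 3 was the highest for Pax6 and the lowest for Tubb3 and Cd24a. The part of that library in these values was not tested. Insm1 had values of 0.34 with Pax6, -0.48 with Tubb3 and -0.07 with Cd24a.

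Promoter windows of 300 bases, from 250 before to 50 after the start site, were taken from RefSeq for GRCm38.p6 and covered 6 of the 9 members with 8 windows. The core of the interferon-stimulated response element (GAAANNGAA) and the STAT site TTCNNNGAA, searched on both strands, were in none of the 8, and in 8.56% and 8.30% of all 32851 windows. The E-box CANNTG was in 72.3% of all windows and in those of Dlx2, Neurod1 and one of 2 of Pax6. The homeodomain core TAATTA was in 5.29% of all windows and in both overlapping windows of Dcx. The windows of Pax6 and Tubb3 are shown because these genes differed in direction at 2 h, with the E-box of Pax6, 20 bases before the start site, in capitals. A missing match says only that these letters are not in this window.
Pax6, chr2:105682213-105682512, plus strand: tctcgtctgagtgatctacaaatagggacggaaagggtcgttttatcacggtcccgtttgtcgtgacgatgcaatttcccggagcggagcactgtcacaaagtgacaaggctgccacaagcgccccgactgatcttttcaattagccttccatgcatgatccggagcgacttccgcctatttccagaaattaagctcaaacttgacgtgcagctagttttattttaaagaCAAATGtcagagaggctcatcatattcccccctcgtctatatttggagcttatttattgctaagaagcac
Tubb3, chr8:123411303-123411602, plus strand: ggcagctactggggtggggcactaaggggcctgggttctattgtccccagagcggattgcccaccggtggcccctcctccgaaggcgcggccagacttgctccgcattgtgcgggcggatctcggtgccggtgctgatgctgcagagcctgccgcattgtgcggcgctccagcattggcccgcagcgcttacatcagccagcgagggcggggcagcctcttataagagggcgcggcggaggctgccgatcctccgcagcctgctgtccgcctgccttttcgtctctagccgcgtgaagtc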

How the data were processed

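Footprint and total RNA counts per gene were used as deposited. The authors trimmed reads with Trim Galore 0.4.4, aligned them with Bowtie 0.12.7 to the Ensembl transcriptome of mm10, removed duplicates, and counted footprints over coding sequences and total RNA over gene bodies (SummarizeOverlaps, mode Union). Removing duplicates without molecular identifiers can lower counts of abundant genes. Footprint and total RNA tables of each time were fitted with edgeR 4.0.16 in R 4.3.3 (quasi-likelihood F test, two-sided, TMM factors within each kind of library, keeping genes that reached 10 counts in 4 or more libraries, Benjamini-Hochberg adjustment over all genes tested). Calls used an adjusted p of 0.05, and 0.1 for translation efficiency, the interaction of library kind and treatment. CPM were scaled by TMM, and log2 CPM for correlations used a pseudocount of 0.5. A standard error is the log2 fold change over the root of F. Poisson intervals of counts cover counting error only, while intervals of fold changes come from the standard error and include the spread between libraries.

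Groups came from the sample titles. Same-numbered footprint libraries deviated together from their group means (correlations from 0.345 to 0.821 at 2 h and from 0.203 to 0.434 at 14 h), so the number was treated as pairing footprints, and the blocked value stands beside the results given here whose call it changed. Those of total RNA did not (from -0.483 to 0.389). Alternatives were DESeq2 1.42.0, total counts without TMM, no filter, a mean of at least 50 counts, the replicate block and leaving out each library; leaving out both libraries numbered 3 at 2 h was added after their levels were seen. The fits were checked on simulated counts drawn separately for each library, so that check does not cover the pairing by number. The members and the gene lists were chosen with earlier results of these data known. Beside the members, the text names from each list at most 3 genes per direction and footprint comparison, those with the largest change among the called with a mean of at least 50 counts, and 3 genes most like each member. A gene that this rule names is not reported here. Zfp238 of the factor list had no match in GENCODE M21. The promoter table had no entry for Insm1, Cd24a or Stmn2. Supplementary tables of the study were not used.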

Additional observations from a re-analysis of the deposited data

Results flagged for a closer look

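Pax6 in footprints at 2 h had 28.1 CPM in vehicle library 3, where the other 3 had 14.9 to 16.3, and 19.2 CPM in IFN-β library 3, where the others had 11.0 to 11.8. Pax6 in total RNA at 2 h had 19.6 CPM in IFN-β library 2, where the others had 28.9 to 29.7. In each case the gap to the nearest library exceeded Dixon's 95% limit for 4 samples, which chance passes in about 1 in 20 groups; 40 groups were checked.

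The log2 fold change of footprints at 14 h minus that at 2 h differed from 0 by its own test for Insm1 (1.49, adjusted p = 0.00129) and Stmn2 (-1.23, adjusted p = 0.0355, edgeR).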

How the results depend on the processing

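The Insm1 calls in footprints at 2 h and in the difference between exposures and the Cd24a call at 14 h kept their direction and side of the threshold under every alternative run. Members called lower and higher in footprints at 2 h numbered 1 and 0, with the replicate block or without both libraries numbered 3 they numbered 2 and 1, and without any 1 library 1 and 0. At 14 h they numbered 1 and 2, with 0 lower at a mean of at least 50 counts, where Stmn2 was not tested, 2 lower with the block, and 0 to 2 lower and 1 to 2 higher without any 1 library. For the difference they numbered 1 and 1, with 0 lower at a mean of 50 counts, 2 and 2 with the block, and 0 to 1 lower and 1 to 2 higher without any 1 library. In total RNA at 2 h DESeq2 called 1 lower. The block changed no other call of a member, total RNA included, where the numbers did not pair the libraries and the block gave Insm1 -1.18 at 2 h (adjusted p = 0.257). The libraries whose removal ended a call are named with the results; the cause was not tested.

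Values that turned sign were far from called. In footprints at 2 h these were Cd24a without vehicle library 3 (-0.015) or IFN-β library 2 (-0.016), within a range of -0.016 to 0.14 over single libraries left out, and Stmn2 without IFN-β library 6 (-0.010), within -0.010 to 0.29. At 14 h it was Dlx2 without vehicle library 1 (-0.030) or IFN-β library 4 (-0.10), within -0.10 to 0.40, and in the difference Pax6 without vehicle library 3 at 2 h (-0.015), within -0.015 to 0.44. In TE at 14 h it was Pax6 at a mean of 50 counts (0.054) and without vehicle culture 2 (0.034) or 3 (0.0050) or IFN-β culture 2 (0.044) or 4 (0.093), within -0.23 to 0.093, and Cd24a without vehicle culture 4 (-0.68), within -0.68 to 1.19.

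Over all genes, 878 were called at 2 h, 3538 with the block and 1671 without both libraries numbered 3 (72.3%, 54.3% and 61.8% of them higher), and 3867 for the difference, 6944 with the block. Without IFN-β library 2, 5 or 6 the count at 2 h was 517 to 575. Total RNA at 2 h gave 93 calls, 169 with DESeq2, 174 with no filter and 44 at a mean of 50 counts (90.3% higher, and 79.3% with DESeq2 or 79.8% by total counts alone), and at 14 h 474, 273 by total counts alone and 247 at a mean of 50 counts (55.1% and, by total counts, 65.9% higher). Total RNA calls fell to between 30 and 57 without IFN-β library 2, 5 or 6 or vehicle library 5 at 2 h, and to between 171 and 271 without any 1 IFN-β library at 14 h. TE gave 115 at 2 h, 250 with DESeq2, 51 by total counts, 27 at a mean of 50 counts and 70 to 73 without vehicle or IFN-β culture 5, and 1137 at 14 h, 743 with the block and 382 at a mean of 50 counts. Scaled by total counts, the median over the genes tested shifted to 0.23 in total RNA and -0.38 in TE at 2 h. Centred within each group instead of each time, the 3 most similar genes were shared in 2 for Stmn2, 1 for Dcx and 0 for the other members. Low counts limited Dlx1, Dlx2, Neurod1 and Dcx in footprints and all members but Pax6 and Insm1 in total RNA.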
